A study of Mus musculus with 4 samples.

Results

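Acinar cells of pancreata from saline-treated mice were described here in 877 of the 5378 barcodes kept in the saline libraries, and of 12807 kept in the whole series. A barcode counted as an acinar cell when it held 500 or more unique molecular identifiers (UMIs) from 200 or more genes, no more than 20% of them mitochondrial, and when 13 digestive enzyme genes supplied 30% or more of its UMIs. The 13 genes were Cpa1, Cpb1, Cela1, Cela2a, Cela3b, Ctrb1, Prss2, Pnlip, Amy2a5, Clps, Cel, Try4 and Try5. The members were chosen by these measured UMI shares. The rule gave 433 cells in S2D, the library taken 2 days after saline, and 444 in S6W, the library taken 6 weeks after saline. Because the enzyme genes chose the cells, a high enzyme share is a property of the choice and not a result.

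Pancreata of WT C57BL/6 mice were dissociated, and cells that excluded DAPI, a dye taken up by dead cells, were collected by flow sorting for the 10x Genomics Chromium 3' assay. The study set saline against caerulein, a cholecystokinin-like peptide that stimulates acinar cells and inflames the pancreas, with recovery of 2 days or 6 weeks. Each of the 4 groups had 1 library, and the labels used here do not give the number of mice behind a library. The caerulein libraries C2D and C6W, also WT C57BL/6, held 488 and 360 acinar cells by the same rule and are given side by side only. With 1 library per group, library, mouse and recovery time cannot be told apart between S2D and S6W, and no p-value was computed. Every interval below is at 95%. Intervals of levels, ratios and shares cover counting error alone. Those of medians over cells cover the uncertainty of the median given the cells of 1 library, and not the spread of the cells. None covers differences between mice or libraries.

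The acinar cell is the secretory cell of the exocrine pancreas. It makes digestive enzymes in bulk, many as inactive precursors called zymogens, stores them in granules at its apical side, and releases them when cholecystokinin or acetylcholine raises its calcium. The identity of the cell is held by a transcription factor complex of PTF1A and RBPJL, which binds an E-box (CANNTG) next to a TTTCC box in promoters of enzyme genes.

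Of the 34 genes on the enzyme lists, 27 had a promoter in the RefSeq table (GRCm38.p6), and 10 of these held CANNTG followed by TTTCC, or GGAAA followed by CANNTG, with at most 30 bases between, in the 250 bases before the start. The share was 37.0%, against 9.35% of all 27025 promoters of the table, and several of the 10 belong to near-identical gene copies. Either motif is the other read on the opposite strand, so both strands were searched. A match is a run of letters and not a measured binding site. The promoters below belong to the most abundant gene of the cells, Ctrb1, and to genes that varied together or against each other from cell to cell, with matched motifs in capitals.
Ctrb1, chr8:111691011-111691260, minus strand: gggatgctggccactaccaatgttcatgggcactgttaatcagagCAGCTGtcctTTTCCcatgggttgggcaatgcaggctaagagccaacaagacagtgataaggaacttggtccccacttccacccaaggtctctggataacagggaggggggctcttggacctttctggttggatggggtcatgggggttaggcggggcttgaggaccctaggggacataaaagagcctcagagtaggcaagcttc
Cela2a, chr4:141826006-141826255, minus strand: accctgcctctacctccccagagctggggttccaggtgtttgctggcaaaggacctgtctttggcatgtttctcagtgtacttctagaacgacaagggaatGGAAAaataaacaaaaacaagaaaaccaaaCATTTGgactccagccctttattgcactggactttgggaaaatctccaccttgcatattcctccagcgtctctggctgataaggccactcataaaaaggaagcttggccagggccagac
Cel, chr2:28563404-28563653, minus strand: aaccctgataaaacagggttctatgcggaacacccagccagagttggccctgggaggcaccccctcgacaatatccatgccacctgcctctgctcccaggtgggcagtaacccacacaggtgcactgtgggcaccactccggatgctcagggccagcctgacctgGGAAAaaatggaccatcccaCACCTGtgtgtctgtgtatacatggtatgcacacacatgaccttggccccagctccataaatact
Cpa1, chr6:30638968-30639217, plus strand: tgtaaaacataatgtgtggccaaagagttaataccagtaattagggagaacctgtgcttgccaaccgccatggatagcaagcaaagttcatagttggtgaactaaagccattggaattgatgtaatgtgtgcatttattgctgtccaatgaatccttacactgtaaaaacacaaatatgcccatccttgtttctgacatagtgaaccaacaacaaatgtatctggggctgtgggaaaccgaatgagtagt
Reg1, chr6:78425733-78425982, plus strand: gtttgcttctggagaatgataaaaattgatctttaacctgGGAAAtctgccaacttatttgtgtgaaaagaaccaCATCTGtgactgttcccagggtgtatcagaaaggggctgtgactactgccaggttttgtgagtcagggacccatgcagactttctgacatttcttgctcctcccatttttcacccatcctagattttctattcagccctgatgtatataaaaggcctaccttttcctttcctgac
Rnase1, chr14:51146768-51147017, minus strand: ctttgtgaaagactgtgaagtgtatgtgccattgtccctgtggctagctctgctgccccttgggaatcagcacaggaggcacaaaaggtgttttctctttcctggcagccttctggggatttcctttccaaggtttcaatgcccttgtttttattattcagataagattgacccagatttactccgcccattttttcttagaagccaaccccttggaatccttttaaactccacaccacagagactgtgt
Ctrb1, Cela2a, Cel and Reg1 each held a match in this window, and Cpa1 and Rnase1 held none.

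Most of the chosen cells lay far above the threshold on the scale that the rule used. In S2D, 244 of the 433 cells had an enzyme share of 60 to 70%, and in S6W 255 of 444 did. Few barcodes lay near the threshold: 7 in S2D and 4 in S6W fell between 30 and 35%, and 10 and 5 fell between 25 and 30%. The S2D barcodes just inside had a median of 1476 genes and those just outside had 329, and in S6W these medians were 1706 and 2118. The plot of enzyme share shows where the threshold fell.

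**Figure D1:**
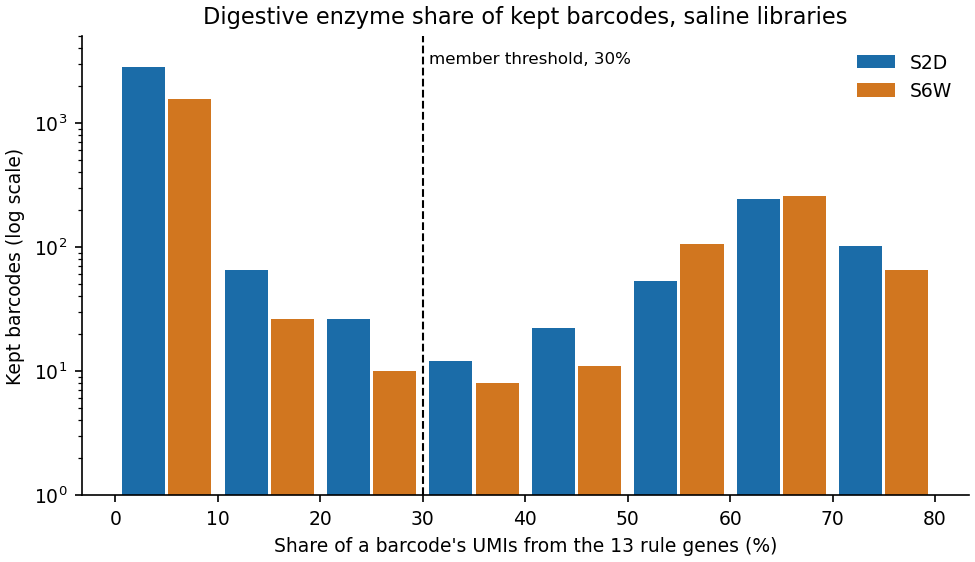
Kept barcodes (vertical axis, log scale) by the share of their UMIs from the 13 rule genes (horizontal axis, percent, bins of 10), for S2D in blue and S6W in orange. The dashed line marks the 30% threshold; most chosen cells lie at 60 to 70% (244 in S2D, 255 in S6W), and 12 and 8 barcodes lie in the bin just above the threshold.

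Acinar cells were 12.9% (11.8 to 14.1%, exact binomial interval) of kept barcodes in S2D and 21.9% (20.1 to 23.7%) in S6W, beside 10.5% in C2D and 12.98% in C6W. These shares are of sorted DAPI-negative barcodes past the filters, so they follow dissociation and sorting as well as tissue. A further 197 barcodes of S2D with at least 30% enzyme UMIs failed the filters, against 18 in S6W.

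The cells held fewer UMIs and far fewer genes than the other kept barcodes. The median acinar cell held 6705 UMIs (6199 to 7246) in S2D and 7914 (7305 to 8367) in S6W, but 459 genes (431 to 491) and 519 (497 to 543). The other kept barcodes of the same libraries had medians of 8560 and 11106 UMIs and of 2657 and 3141 genes. Mitochondrial UMIs were 0.234% and 0.165% at the median, against 3.80% and 3.55% in the other barcodes. Enzyme shares at the median were 66.2% (65.1 to 67.3%) in S2D and 63.1% (62.5 to 64.0%) in S6W, 45.2% in C2D and 61.4% in C6W. A few very deep barcodes weighed heavily on the sums: 21 cells of S2D with at least 50000 UMIs held 41.5% of its acinar UMIs, and 31 of S6W held 52.3%. No barcode sequence of an acinar cell was shared between S2D and S6W. With C2D and C6W, S2D shared none either, while S6W shared 1 with each.

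Of the 5 markers of the label, Cpa1, Cela1, Prss2 and Pnlip are rule genes, so their UMIs in every chosen cell come from the choice and do not check it. They were also widespread as free RNA: Cela1 had a UMI in 99.97% and 99.56% of the other barcodes, at 1616 and 965 counts per 1000000 summed UMIs (CPM) against 64830 and 68788 CPM in the acinar cells. In barcodes with T or B cell markers, the median barcode held 119 UMIs of the 13 genes in S2D and 76 in S6W, or 1.77% and 0.962% of its UMIs. Ptf1a, which encodes a DNA-binding member of the identity complex and was not part of the rule, served as the check. It had a UMI in 12.7% and 11.9% of the acinar cells and in 0.446% and 0.189% of the other barcodes, at median depths of 6705 and 7914 UMIs against 8560 and 11106. Rbpjl, its partner, had a UMI in 42.0% and 39.9% of the acinar cells and in 2.02% and 1.07% of the others. Bhlha15 (MIST1), which supports granule formation, had a UMI in 28.2% and 23.0%, against 2.99% and 0.945%. Markers of T cells, blood endothelium, mural cells, neutrophils, islets, mesothelium and Schwann cells each summed to between 0.00 and 6.00 CPM in the acinar cells. Duct markers summed to 82.3 and 32.2, macrophage markers to 18.4 and 5.74, and plasma cell markers to 52.2 and 49.1.

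Levels in the following paragraphs are CPM over the summed acinar cells of a library. A 3' UMI counts a captured molecule and is not scaled by transcript length. The 20 most abundant genes supplied 84.6% of acinar UMIs in S2D and 85.6% in S6W, and the 32 enzyme-list genes found in the files supplied 78.3% and 79.1%.

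Chymotrypsinogen B, Ctrb1 (chromosome 8, 111686519 to 111691010, GRCm38, a protein-coding gene), was the most abundant gene in both libraries. It stood at 133686 CPM in S2D and 130172 in S6W, or 13.4% and 13.02% of all acinar UMIs. Prss2, a trypsinogen, stood at 69996 and 68773, and Try4, another, at 50913 and 47655. The trypsinogen-like 2210010C04Rik stood at 51750 and 58724, and Ctrl, a chymotrypsin-like protease, at 35465 and 34573. The log2 ratios of S6W over S2D for these 5 genes, with adjusted totals, lay from 0.12 (Try4) to 0.40 (2210010C04Rik). Try5 stood at 27479 and 27792, and at 62181 in C2D.

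The elastases were next. Cela2a stood at 79680 CPM in S2D and 62723 in S6W, Cela1 at 64830 and 68788, and Cela3b at 41407 and 44991. Among the carboxypeptidases, which trim peptides from their C-terminal end, Cpa1 stood at 48528 and 46885 and Cpb1 at 30758 and 33831. In C2D, Cela2a stood at 12657 and Cela1 at 9062, the elastases furthest from the saline levels.

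The lipases followed. Pnlip, pancreatic lipase, stood at 60505 and 70074, its cofactor colipase, Clps, at 37292 and 44592, and Cel, the bile salt-stimulated lipase, at 13414 and 15389. Their log2 ratios were 0.43, 0.47 and 0.41, and 0.21, 0.26 and 0.20 without adjusting the totals. The lipase-related Pnliprp1 stood at 19888 and 17899. Ribonuclease 1, Rnase1, stood at 15929 and 20313, and the granule proteins Sycn (syncollin) and Zg16 (zymogen granule protein 16) at 25104 and 24277, and at 19503 and 19575. The trypsin inhibitor Spink1 stood at 1959 and 2565. The levels plot gives all 19 genes in the 4 libraries.

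Amylases, the starch-digesting enzymes of the pancreas, stood far below the proteases and lipases. Amy2a5 stood at 576 CPM in S2D and 542 in S6W, and all amylase genes together made 0.0720% and 0.0731% of acinar UMIs. The Amy2a genes lie side by side on chromosome 3 as near-identical copies. Reads that match several copies may have been lost or split in counting, so these amylase levels are uncertain.

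**Figure D2:**
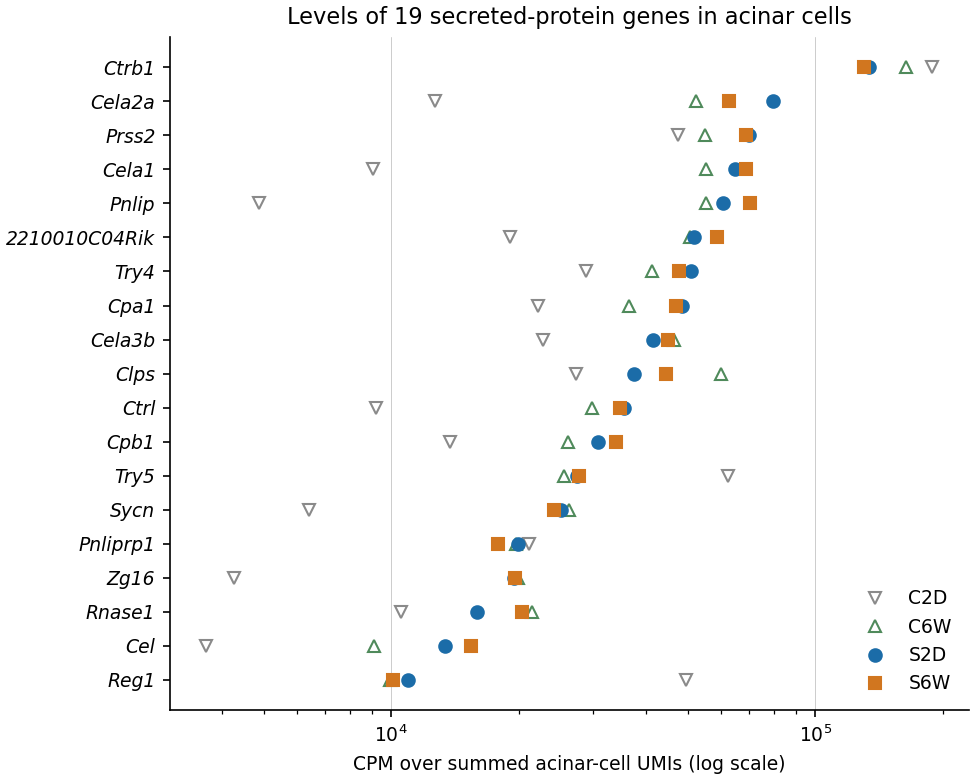
CPM over summed acinar-cell UMIs (horizontal axis, log scale) for 19 secreted-protein genes, with 1 point per library: S2D circles, S6W squares, C2D downward and C6W upward triangles. The saline points lie near each other, with Cela2a at 79680 and 62723 among the widest apart, while C2D stands far lower for Pnlip (4882) and Cela1 (9062).

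The regulators and the secretory machinery stood at far lower levels. Xbp1, which drives the endoplasmic reticulum programme of secretory cells, stood at 79.96 CPM in S2D and 109 in S6W. Rbpjl stood at 52.1 and 45.0, Bhlha15 at 26.8 and 19.5, and Ptf1a at 12.53 and 10.98, with an interval of its log2 ratio from -0.45 to 0.50. Cckar, the cholecystokinin receptor through which caerulein acts, stood at 74.0 and 75.2, and Aqp12, an acinar aquaporin, at 250 and 264. Of the 13 acinar transcription factors 5 had enough UMIs to compare, of the 19 secretagogue and calcium genes 4, and of the 13 exocytosis genes 5. None of those compared reached a 2-fold difference, and of all compared genes 1.21% were that much higher and 2.3% lower, so this count is near the background. The ratio of Rbpjl was 0.00, from -0.22 to 0.23.

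Genes of protein folding and export showed no 2-fold difference either. All 23 compared genes of signal peptide handling and translocation, all 27 of endoplasmic reticulum folding and stress, and all 14 of amino acid and creatine handling stayed within 2-fold, which is near the background of 1.21% higher and 2.3% lower. Pdia2, a disulfide isomerase typical of pancreas, was the most abundant folding gene, at 1098 CPM in S2D and 1569 in S6W, a log2 ratio of 0.73 (0.69 to 0.77). Its level per 1000 UMIs had medians over cells of 1.25 and 1.66. Creld2 and Hyou1, both induced when unfolded protein accumulates, had ratios of 0.74 each, with intervals from 0.52 to 0.96 and from 0.32 to 1.16. P4hb, an abundant disulfide isomerase, was at 0.08 and Sel1l, part of protein degradation from the reticulum, at -0.27. Gatm, Gamt and Phgdh belong to the creatine and serine pathways for which acinar cells are known. Gamt had a ratio of 0.25 and Phgdh one of -0.02.

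Between S6W and S2D, 1651 genes had at least 100 UMIs over both libraries, and ratios used totals adjusted by the trimmed mean of M values (TMM). At least 2-fold higher in S6W were 20 genes, or 1.21% of those compared, and at least 2-fold lower were 38, or 2.3%. The median log2 ratio over all compared genes was 0.12, and with plain CPM it was -0.10, with 13 genes higher and 52 lower. The adjustment thus moved every ratio by about 0.2, and signs of ratios smaller than that depend on it. Ctrb1, for one, was at 0.18, or -0.04 by plain CPM, and Prss2 at 0.19, or -0.03. List medians were 0.18 for trypsinogens and chymotrypsinogens, 0.29 for elastases and carboxypeptidases, 0.40 for lipases, 0.40 for amylases and 0.24 for other granule proteins, and by plain CPM -0.03, 0.08, 0.19, 0.18 and 0.02.

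Among the 12 compared trypsinogens and chymotrypsinogens, 3 were at least 2-fold higher in S6W, against 1.21% of all genes, and all 3 rested on 1 cell. Prss1 had 20 UMIs in S2D and 518 in S6W, a log2 ratio of 4.44 (3.80 to 5.16). Of the 518, 489 came from 1 barcode of 26037 UMIs, and without the largest barcode of each library the ratio was 0.49. Gm10334 went from 2.22 to -0.24 in the same way, and Gm5771 from 1.49 to -0.74.

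The same S6W barcode held the most UMIs of Prss1, Gm10334, Gm5771 and Prss3. Gm10334 made up 75.3 of every 1000 of its UMIs, against 0.0503 in the other S6W acinar cells summed. Prss3 was at 44.5 against 0.153, Gm5771 at 21.4 against 0.0154, and Prss1 at 18.8 against 0.00371. Other trypsinogens differed far less: Prss2 was at 35.6 against 68.9, Try4 at 31.7 against 47.7 and Try5 at 34.8 against 27.8. The elastase Cela2a was at 18.97 against 62.9. The barcode had 1295 genes, 0.115% mitochondrial UMIs, 1 Malat1 UMI and no Reg3b UMI. A barcode of C6W with 114438 UMIs carried the same 4 genes, with Prss3 at 10.1 of 1000 UMIs against 0.352 in the other cells and Prss1 at 1.63 against 0.00657. In S2D no cell held 10 Prss1 UMIs, and in C2D 96 of 488 did. Prss1 (chromosome 6, 41458932 to 41463786, GRCm38) lies in the trypsinogen cluster with Gm10334, Gm5771, Prss3, Try4, Try5 and Prss2. These copies are closely alike in sequence, so which copy a read belongs to is uncertain.

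**Figure D3:**
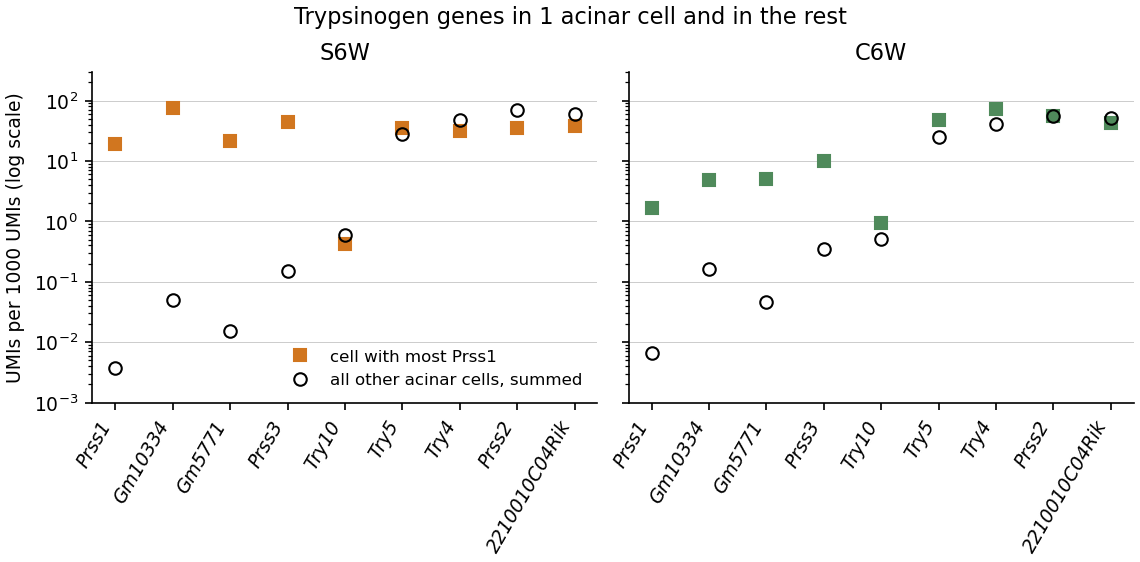
UMIs per 1000 UMIs (vertical axis, log scale) of 9 trypsinogen genes in the acinar cell with most Prss1 UMIs (filled squares) and in all other acinar cells of that library summed (open circles), for S6W and C6W. The 4 genes on the left stand far above the other cells in both libraries, Prss1 at 18.8 against 0.00371 in S6W, while Try4, Try5, Prss2 and 2210010C04Rik lie near them.

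Metallothioneins, which bind zinc and copper, were higher in S6W, and their largest barcodes held at most 4.92% of their UMIs. Mt1 stood at 962 CPM in S2D and 1785 in S6W, a log2 ratio of 1.11 (1.06 to 1.15), and at 0.89 by plain CPM. Its median over cells was 0.811 per 1000 UMIs in S2D (0.733 to 0.868) and 1.66 in S6W (1.51 to 1.84), and the interquartile ranges, 0.397 to 1.34 and 0.934 to 2.53, overlapped. Mt2 stood at 193 and 414, a ratio of 1.32 (1.22 to 1.42), and 35.6% of S2D cells and 10.4% of S6W cells had no Mt2 UMI. The levels of C2D and C6W were 1849 and 2109 for Mt1, so S2D was the lowest of the 4 libraries for that gene. For Mt2, the medians over cells per 1000 UMIs were near each other in S2D, at 0.1495 (0.1254 to 0.1762), and C2D, at 0.1502 (0.1271 to 0.1786). Hist1h1c, a linker histone, had 54 UMIs in 42 cells of S2D and 208 in 118 cells of S6W, a ratio of 1.69 (1.25 to 2.15) with or without the largest barcode.

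The other named genes higher in S6W had fewer UMIs. Klk1b11, a kallikrein, had 28 and 83 UMIs, Smim24 51 and 134, and P2ry14, a nucleotide sugar receptor, 26 and 74. Their log2 ratios were 1.31, 1.14 and 1.25. Amylase genes Amy2a3 and Amy2a2 were at 1.09 (0.78 to 1.42) and 0.98 (0.71 to 1.25), while Amy2a5, the highest of the family, was at 0.13. Cxcl14, Thbs1 and Lum, genes of fibroblasts and matrix, had 79.3%, 53.1% and 30% of their S6W UMIs in 1 barcode each. Fibroblast markers summed to 149 CPM in S2D acinar cells and 147 in S6W, with 90.6% and 82.4% of those in 5 barcodes, beside 6543 and 13651 in the other barcodes. All 4 haemoglobin genes, listed with markers of red cells, summed to 928 CPM in S6W against 1 UMI in S2D. Of the S6W haemoglobin UMIs 87.4% sat in 5 barcodes, and the summed level outside the acinar cells was 25938 in S6W and 156 in S2D. The part of free RNA and mixed barcodes in these ratios was not tested.

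Of the Reg family, secreted lectin-like proteins that rise in pancreatic injury, 5 genes were compared and 3 were at least 2-fold lower in S6W, against 2.3% of all genes. The family was listed with earlier results of these data known, so the count is no independent evidence. Reg3b had 778 UMIs in S2D and 149 in S6W, or 137 and 19.02 CPM, a log2 ratio of -2.64 (-2.90 to -2.38) and -2.82 without the largest barcodes. It had a UMI in 132 of 433 cells of S2D and in 54 of 444 of S6W. At least 5 Reg3b UMIs were found in 31 and 6 cells. Reg2 had 1166 and 513 UMIs, a ratio of -1.44 (-1.59 to -1.29), and Reg3g 102 and 30, a ratio of -2.02 (-2.66 to -1.42). Reg1, the most abundant, had a UMI in every cell and stood at 10986 and 10108, and Reg3d at 104 and 118, with ratios of 0.09 and 0.39.

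Cells with a UMI of both Reg3b and Reg2 were counted. In S2D, 60.6% of the cells with a Reg3b UMI also had Reg2, against 23.9% of the cells without Reg3b. In S6W these shares were 51.9% and 23.6%. The cells with Reg3b were deeper, at medians of 8872 and 10756 UMIs against 6106 and 7548, and the part of depth in this was not tested. In C2D 487 of 488 cells had Reg3b, at 19308 CPM, and in C6W 35 of 360 did, at 49.9. The S2D level thus lay between those of the 6-week libraries and C2D, and nearer to the first.

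The other named genes lower in S6W included genes known from immune cells. Igkc, an antibody light chain, had 1134 and 195 UMIs, or 200 and 24.9 CPM, and had a UMI in 323 cells of S2D and 138 of S6W. Cd74, H2-Aa and H2-Ab1, which present antigen, had ratios of -3.65, -2.96 and -2.80, with 33.6%, 33.9% and 21.0% of their S2D UMIs in 1 barcode. For Iglc2 and Cd79a, B cell genes, 1 S2D barcode held 82.8% and 51.2%. Srgn, a proteoglycan core of blood cells, had 112 and 16 UMIs. B cell markers summed to 281 CPM in the acinar cells of S2D and 35.9 in S6W, against 46325 and 16529 in the other barcodes, with all 5 markers detected in both, and 6 S2D acinar cells also met the T or B cell marker count against 0 in S6W. Their part in these ratios was not tested.

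Early response genes depended on few cells. Of the 17 compared genes of the AP-1 and dissociation list, 3 were at least 2-fold lower in S6W, Dusp1 (-1.23), Fosb (-1.03) and Hspa1a (-2.56), and none higher, against 2.3% and 1.21% of all genes. Dusp1, a phosphatase that ends kinase signalling, had 217 and 110 UMIs, and without cells rich in Malat1 its ratio was 0.14. Fos and Jun, the AP-1 subunits with 122 and 137 CPM in S2D, had ratios of 0.12 and -0.18. In the list of NF-kB targets and cytokines, 2 of 3 compared genes were lower by 2-fold or more, against 2.3% of all genes. Cxcl2, a neutrophil attractant, was at -2.63 with 71.5% of its S2D UMIs in 1 barcode, was at -0.90 without the largest barcodes, and at 1.40 without Malat1-rich cells, where it had under 100 UMIs. Nfkbia, the NF-kB inhibitor, was at -1.36, and at 0.48 without Malat1-rich cells. Spp1, a duct marker, was at -1.84, and at 0.22 when cells with an enzyme share from 20% were admitted.

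Malat1, an RNA that stays in the nucleus, split the acinar cells sharply. In S2D 262 of 433 cells (60.5%) had no Malat1 UMI, and in S6W 345 of 444 (77.7%). Cells in which Malat1 made up at least 0.1% of UMIs, a bound chosen after the values were seen, numbered 38 in S2D (8.78%) and 11 in S6W (2.48%). They held 92.5% and 95.9% of all acinar Malat1 UMIs. Summed, Malat1 stood at 795 CPM in S2D and 354 in S6W, a log2 ratio of -0.95 (-1.02 to -0.89). That ratio depended on single cells and on the cells admitted: 1 barcode held 44.3% of the S6W UMIs of Malat1. It was -1.68 without the largest barcodes, -2.23 in thinned cells, 0.08 at an enzyme share from 50% and 5.50 with free RNA subtracted. The subtracted profile was that of all kept barcodes, so it held the RNA of other cells and not free RNA alone. Of the 7 compared genes of the list of nuclear retained RNA, 3 were at least 2-fold lower, against 2.3% of all genes, namely Ccnl1 (-1.84), Xist (-1.47) and Son (-1.22), named after their values were seen.

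Malat1-rich cells differed in much else. Their medians were 1208 genes in S2D and 2894 in S6W, against 442 and 516 in the other acinar cells, and 2.72% and 1.39% mitochondrial UMIs against 0.190% and 0.153%. Their median enzyme shares were 45.6% and 50.6%, against 67.2% and 63.3%. The AP-1 and dissociation list summed to 9536 and 7735 CPM, against 614 and 535. Rbpjl stood at 105 and 176 CPM against 48.6 and 40.3, and Ptf1a at 8.48 and 14.7 against 12.8 and 10.8. The Ptf1a values of the Malat1-rich cells rest on few UMIs and have no interval. Marker genes of 10 other cell types checked, ducts, plasma cells and red cells aside, summed to 3711 and 3553 CPM, against 248 and 77.5, although over single cells their medians were 769 and 90.8, against 226 and 88.6. The groups were made from the cells' own counts, so this is a description. C2D and C6W held 28 and 18 such cells with 5467 and 9661 CPM of the AP-1 list, against 1592 and 830.

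Of 12 compared mitochondrial transcripts 1 was at least 2-fold lower in S6W, mt-Nd4l at -1.18 (-1.51 to -0.85), against 2.3% of all genes. The median of the list was -0.56, against 0.12 for all genes. mt-Co1 and mt-Atp6, subunits of the respiratory chain and of ATP synthase, had ratios of -0.65 and -0.57, and -0.43 and -0.44 without Malat1-rich cells. Mitochondrial share is also a measure of cell integrity and was bounded by the rule at 20%. The plot of list medians sets these lists beside the enzyme lists.

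**Figure D4:**
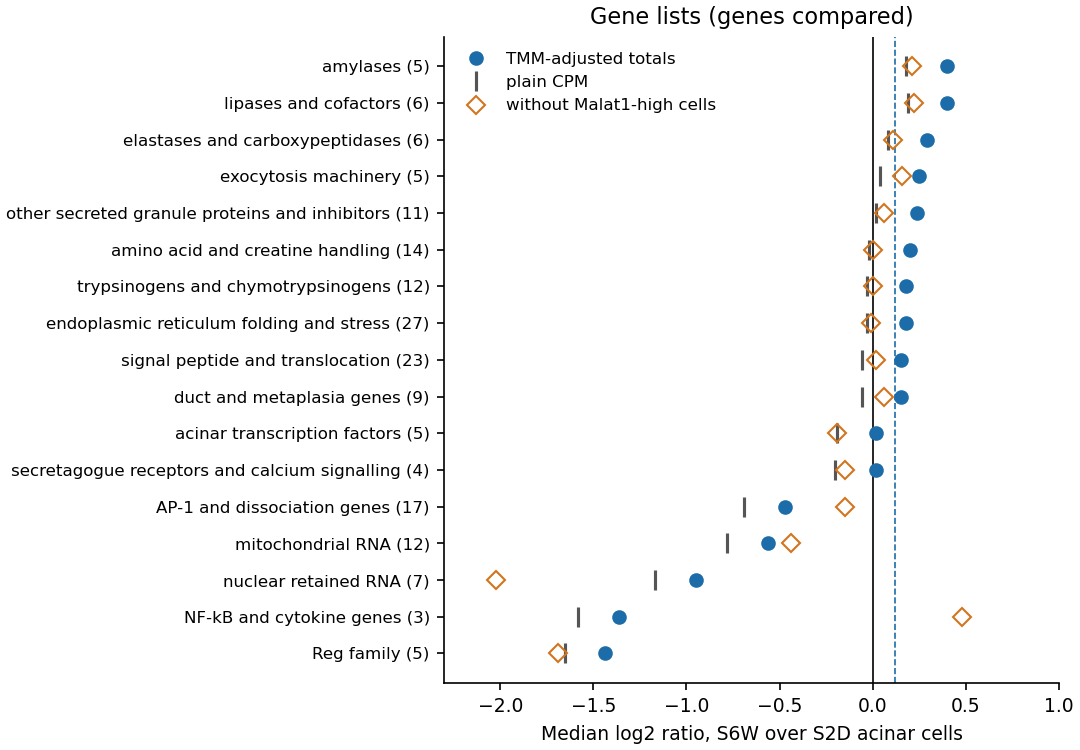
Median log2 ratio of S6W over S2D acinar cells (horizontal axis) for each gene list, with the number of genes compared in brackets: circles with TMM-adjusted totals, bars with plain CPM, diamonds without Malat1-rich cells. The dashed line is the median of all compared genes, 0.12; the Reg family lies lowest at -1.44, and without Malat1-rich cells the nuclear and the NF-kB lists rest on 1 gene each.

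Single acinar cells differed in the mix of their enzymes. To compare cells of unequal depth, 418 cells of S2D and 430 of S6W were thinned to 2000 UMIs, which left out 15 and 14 shallower cells. Clps, the colipase gene (chromosome 17, 28558149 to 28560766, GRCm38), had the highest Fano factor (variance over mean) of the 19 secreted genes followed, 52.5 in S2D and 40.9 in S6W. It ranged from 3 to 293 UMIs of 2000 in S2D, with a median of 36.5 (32 to 44), and from 7 to 331 in S6W, with a median of 105 (88 to 115). In S2D 56.9% of the cells lay under 50 UMIs and 23.9% at 100 or more, and in S6W these shares were 32.3% and 51.2%. The libraries thus differed in the middle of the distribution and shared its range. Summed over all UMIs, where deep cells weigh most, Clps differed less, at 37292 and 44592 CPM.

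Cela2a was the counterpart. Its median was 167 UMIs of 2000 in S2D (158 to 177), in a range of 7 to 398, and 91 in S6W (86 to 96), in a range of 13 to 281. Its Fano factors were 30.9 and 30.5. Try5 had Fano factors of 29.6 and 25.2, and Ctrb1 had 23.45 and 21.81. Prss2 had medians of 123 and 115 and Fano factors of 5.57 and 6.78. A Fano factor can rise with the mean, so it does not rank relative spread. Ctrb1 had the highest mean of the 19 genes, at 286 and 310 UMIs of 2000. In S2D it ranged from 77 to 561, while Reg1, with a Fano factor of 7.29, ranged from 2 to 76.

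Cells rich in Clps were poor in Cela2a within each library. Pearson's r over cells was -0.64 in S2D and -0.69 in S6W, and -0.67 in C6W, against -0.09 in C2D. Clps also went against Cel, at -0.67 and -0.75, Cpa1, at -0.66 and -0.64, and Ctrl, at -0.59 and -0.65. It went with Zg16, at 0.76 and 0.62, Rnase1, at 0.61 and 0.63, and Reg1, at 0.54 and 0.55. Cela2a and Cpa1, an elastase and a carboxypeptidase, went together at 0.78 in both. These values are over 418 and 430 cells that share a library and a fixed sum of 2000 UMIs, in which a rise of 1 abundant gene lowers the room for others. The median r over all 171 pairs of the 19 genes was 0.05 in S2D and -0.02 in S6W.

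**Figure D5:**
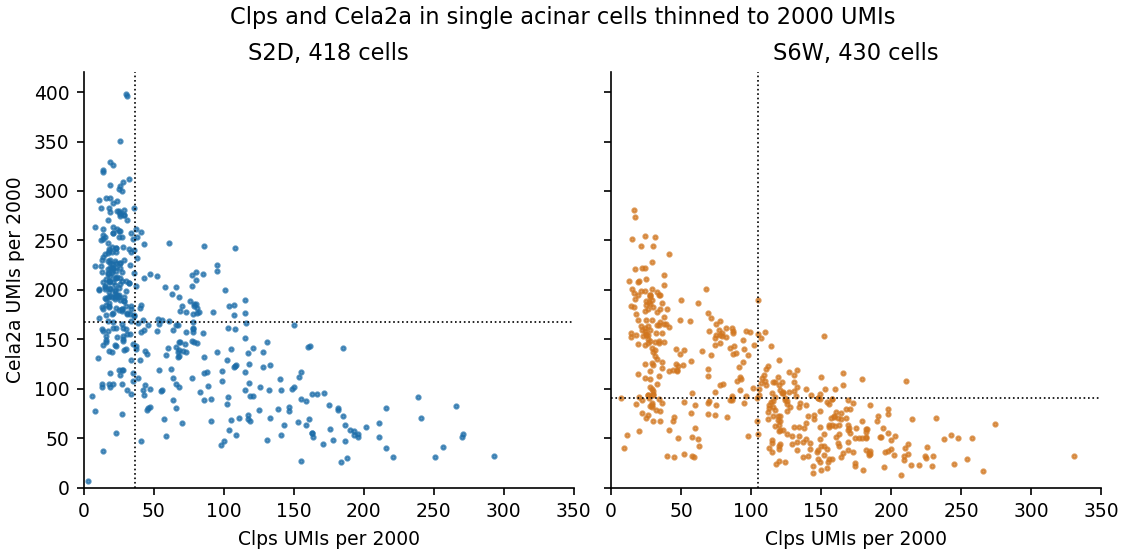
Clps (horizontal axis) against Cela2a (vertical axis) in single acinar cells thinned to 2000 UMIs, 1 point per cell, for S2D on the left and S6W on the right, with dotted lines at each library's medians. Both libraries run from cells high in Cela2a and low in Clps to the reverse (r of -0.64 and -0.69), and more S6W cells lie at the Clps side, with a median of 105 against 36.5.

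Cells were then split by their Clps UMIs into terciles, a split made from the data and given as a description. The upper tercile of S2D (139 cells, at least 73 Clps UMIs) was set against the lower (139 cells, at most 26), and in S6W the bounds were 133 and 52 with 143 cells each. In S2D 57 of 253 genes were at least 2-fold higher in the upper tercile (22.5%) and 30 lower (11.9%). In S6W 72 of 254 were higher (28.3%) and 22 lower (8.66%). In both libraries 47 of 231 genes were higher (20.3%) and 9 lower (3.9%), Clps itself left out.

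Of the 47 genes, 29 encode ribosomal proteins (61.7%), as do 76 of the 223 compared genes with a transcript length (34.1%), among them Rpl41 (661 UMIs against 146 in S2D, 876 against 178 in S6W) and Rps24 (560 against 144, 823 against 85). The unnamed gene Gm42418, also among the 47, had 5005 UMIs against 699 in S2D and 6734 against 635 in S6W. Sec61g, a small subunit of the translocation channel, had 67 UMIs against 10 in S2D and 65 against 5 in S6W. Atp5e and Uqcrq, small subunits of ATP synthase and of respiratory complex III, had log2 ratios of 2.18 and 2.89 in S2D and 3.19 and 2.01 in S6W. The secreted products Spink1 (1.55 and 1.70), Tff2, a trefoil peptide (1.49 and 1.51), and Reg1 (1.13 and 1.10) belong to this side, and Gatm, the first enzyme of creatine synthesis, is also on it (1.55 and 1.49). The upper terciles were deeper before thinning, at medians of 9464 UMIs against 5661 in S2D and 7761 against 6394 in S6W. Over all thinned cells, Pearson's r of Clps with the log of the UMIs before thinning was 0.21 in S2D and -0.04 in S6W. They held 7 Malat1-rich cells against 16, and 2 against 4, and without such cells 59 of 211 genes were higher and 6 lower in both.

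On the lower side were Cel (-1.10 and -1.80), Odc1, the first enzyme of polyamine synthesis (-1.70 and -1.66), Edem2, of protein degradation from the reticulum (-1.49 and -1.34), and Eef2, a translation elongation factor (-1.32 and -1.31). Atp5b, Slc39a5, Phgdh, Krt18 and mt-Atp6 completed the 9. Cela2a was at -0.91 in S2D and -1.40 in S6W, Cpa1 at -0.83 and -0.86, and Pdia2 at -1.12 and -0.69.

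The 2 sides also differed in transcript length. The 47 genes had a median length of 835 bases for the longest protein-coding transcript (383 to 4715), and the 8 nuclear genes of the lower side 2044 bases (1437 to 3089), against 1320 for the 168 other genes. Across 223 genes, which are not independent replicates, Spearman's rho of length with the log2 ratio between terciles was -0.44 in S2D and -0.37 in S6W. Without enzyme and ribosomal protein genes it was -0.41 and -0.33 across 125 genes, and with GC content in place of length -0.16 and -0.15 across all 223. Among the 18 secreted genes other than Clps, rho of length with the correlation to Clps was -0.30 and -0.23. Some secreted genes did not follow the order of annotated length. The gene 2210010C04Rik, at 2142 bases, went with Clps (r of 0.60 and 0.49), while Try4, at 801 bases, went against it (-0.40 and -0.56). Lengths are those of the longest annotated transcript, and which transcript the cells made was not measured. The part of transcript length and of RNA quality in this spread was not tested.

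Free enzyme RNA was also compared between the libraries. In barcodes with T or B cell markers, Clps made up 5.79% of the UMIs of the 19 secreted genes in S2D and 7.94% in S6W, and Cela2a made up 7.59% and 5.14%. In the acinar cells summed these were 4.46% and 5.26% for Clps, and 9.52% and 7.40% for Cela2a. Both genes thus moved the same way in free RNA and in the cells.

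Genes outside the enzyme lists were ranked by the lower of their 2 Fano factors, leaving out haemoglobin, mitochondrial, ribosomal protein and unnamed genes. The first were Malat1, with Fano factors of 62.7 and 25.2, and the fibroblast genes Dcn (17.6 and 20.8), Gsn (16.3 and 24.9) and Mgp (21.8 and 7.16). A single barcode held 39.0% of Dcn UMIs in S2D and 46.8% in S6W. Reg1, Sycn, Rnase1 and Zg16, all among the 19 secreted genes, came next, then Neat1, a nuclear RNA, and Tff2. Higher values in 1 library alone included 179 for the haemoglobin gene Hbb-bs in S6W and 44.7 for Cxcl2 in S2D.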

How the data were processed

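The deposited matrices of the 4 libraries give raw counts: the number of UMIs of each of 31053 genes in each barcode that the authors kept as a cell. Per the submitters' processing notes, the build is mm10 and the authors' tools were FastQC and Cell Ranger 3.0.2. The labels gave each library its group.

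Acinar cells were chosen in each library by the filters and enzyme share given in the report. Their UMIs were summed per library (5665189 in S2D, 7835832 in S6W), and totals were adjusted by TMM in edgeR 4.0.16 under R 4.3.3. Ratios of S6W over S2D, on the log2 scale, have exact conditional binomial intervals at 95%, levels exact Poisson intervals and shares Clopper-Pearson intervals. Medians over cells have exact intervals from the ranked cells (order statistics). Genes needed 100 UMIs over both libraries, and a log2 ratio of 1 or more in size was called 2-fold. Where a gene had no UMI in 1 library, 3 counts stood in its place and the ratio is a bound. For comparisons between cells, each cell was thinned to 2000 UMIs, and Clps terciles compared genes with at least 50 UMIs. Doublets were called with Scrublet (scanpy 1.11.5) and kept in the main values. Barcodes with at least 5 UMIs of T or B cell markers gauged free RNA. For its subtraction, the summed profile of all kept barcodes was scaled to the median enzyme UMIs of these T or B cell barcodes. RNA inside other cells is part of that profile and was subtracted with it. Malat1-rich cells are those with at least 0.1% Malat1 UMIs.

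Named were the rule genes and markers, the 20 most abundant genes, the 10 highest and 10 lowest ratios (leaving out mitochondrial, ribosomal protein, haemoglobin, sex-linked and unnamed genes), leading members of each gene list, and the 10 most uneven genes outside the enzyme lists. Of the genes so chosen, 1 is not reported here. Fosb, Gm5771, Gatm, the haemoglobins and the genes of the Clps terciles were named after their values were seen. Members and lists were chosen with earlier results of these data known. Alternatives changed the scaling (plain CPM, totals without enzyme genes, DESeq2 1.42.0 size factors), gene minimum, cell filters, enzyme share, doublets and free RNA. Chosen after seeing the data were those without deep barcodes, without Malat1-rich cells and without each gene's largest barcode. The script was tested on simulated data. Ensembl identifiers linked the genes to GENCODE vM21 for coordinates and transcript lengths, and promoters were taken from RefSeq (GRCm38.p6), matched by symbol. Python 3.11.15, numpy 2.4.6, scipy 1.17.1, pandas 2.3.3 and matplotlib 3.10.9 were used.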

Additional observations from a re-analysis of the deposited data

Results flagged for a closer look

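Outside the acinar cells analysed, 197 barcodes of S2D and 18 of S6W had at least 30% of their UMIs from the 13 enzyme genes but failed a filter. The S2D barcodes had medians of 658 UMIs, 110 genes and 39.1% mitochondrial UMIs. Of them 185 had under 200 genes, 183 had over 20% mitochondrial UMIs and 171 failed both. The S6W barcodes had medians of 1097 UMIs, 154 genes and 4.35% mitochondrial UMIs. C2D and C6W held 17 and 21 such barcodes.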

How the results depend on the processing

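No paired analysis was possible because each group has 1 library. No library was left out.

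The 20 genes higher in S6W became 13 by plain CPM, 201 and 10 at gene minimums of 20 and 400 UMIs, 8 in thinned cells, 10 and 6 at enzyme shares from 50% and 70%, and 88 with free RNA subtracted. Without Malat1-rich cells, and without each gene's largest barcode, 13 were higher. The 38 genes lower became 380 and 7 at the gene minimums, 8 in thinned cells, 64, 17 and 3 at enzyme shares from 20%, 50% and 70%, 13 with free RNA subtracted and 15 without Malat1-rich cells. Fewer or more genes were compared in these settings, from 329 in thinned cells to 5606 at 20 UMIs. Of the 20 higher genes 12 remained 2-fold higher without their largest barcode and 10 without Malat1-rich cells, with 15 still compared in each. Of the 38 lower genes 28 of 29 still compared and 14 of 22 remained. In thinned cells 6 of 7 still compared remained on each side. With free RNA subtracted, 8 of 15 higher and 5 of 5 lower genes did.

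At an enzyme share from 70% the acinar cells were 3.05% of kept barcodes in S2D and 3.20% in S6W, with median enzyme shares of 71.6% and 71.5% and medians of 378 and 409 genes. Thinned cells held medians of 196 and 202 genes. Without Malat1-rich cells, which are then no longer counted, the acinar share of S2D was 11.81%. The other alternatives of these medians and shares stayed within their intervals.

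Among ratios of at least 2-fold with enough UMIs in the alternative, directions changed for Gm10334 (-0.82 at an enzyme share from 70%, -0.24 without its largest barcode), Gm5771 (-0.74 without its largest barcode), Dusp1 (0.14 without Malat1-rich cells), Spp1 (0.22 at an enzyme share from 20%), Nfkbia (0.04 at an enzyme share from 50%, 0.48 without Malat1-rich cells) and the median of the Reg family (0.02 at an enzyme share from 70%, over 3 genes). The cause was not tested, apart from Gm10334 and Gm5771 without the barcode described in the report. Cxcl2, with under 100 UMIs left, was at 1.40 without Malat1-rich cells. Of 1776 alternative ratios of 125 named genes, 1128 stayed within their counting interval, 641 left it and 7, those given here, were 2-fold ratios that changed direction. Of 251 alternative list medians, 218 moved by under 0.25. Depth limited Ptf1a and the receptors, with 71 and 86 Ptf1a UMIs in all.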
